A study of Mus musculus with 4 samples.

Results

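Transcript levels of 10 interferon-inducible GTPase genes were read from RNA-seq libraries of cells sorted out of injured mouse retinas. The genes are 6 immunity-related GTPases (IRGs: Igtp, Irgm1, Irgm2, Iigp1, Tgtp1 and Gm12185) and 4 guanylate-binding proteins (GBPs: Gbp2, Gbp3, Gbp6 and Gbp7). They were taken by name from a table of 56493 genes, and each had 1 row. The names had been selected on their measured difference between the groups compared here, so the levels and fold changes of these 10 genes are given as a description, with no test. All mice were wild type, received an AAV2 vector into the vitreous and had the optic nerve crushed a month afterwards, and all 4 sample titles carry the tag NCd8, which the labels do not explain. In 1 group of 2 libraries the vector was AAV2-CrAT, for carnitine acetyltransferase, and in the control group of 2 libraries it was AAV2-MCS, a name that the labels do not spell out. The crush and the virus are therefore common to both groups, and no uninjured or uninjected sample was used here. The labels give neither the promoter of the vector, the species of its insert, nor the age of the animals, and they do not say whether the libraries of a group came from separate animals. P-values set the difference between the groups against the spread between these libraries, which may be technical.

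IRGs and GBPs are large GTPases made in response to interferons, chiefly interferon gamma, which acts through the kinases Jak1 and Jak2. In mouse cells they gather on the vacuoles of intracellular parasites and bacteria and break them open. IRGs of the regulatory type (Irgm1, Irgm2 and Igtp, also called Irgm3) sit on the cell's own membranes and hold the effector type (such as Iigp1 and Tgtp1) in an inactive state, while GBPs assemble on pathogen membranes and take part in inflammasome signalling.

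The bases before the annotated start of each gene are shown because interferon-activated factors bind there through known motifs. RefSeq start sites of build GRCm38.p6 were available for 8 of the 10 genes, and Gbp6 and Iigp1 had no entry. The 250 bases before each start were searched on both strands for the core of the interferon-stimulated response element, GAAANNGAAA, which IRF proteins bind, and for the gamma-activated site, TTCNNNGAA, a motif of genes that respond to interferon gamma. Matches of the motifs may overlap each other. Each window below holds 60 bases in the direction of transcription, with the motif matches in capitals.
Igtp: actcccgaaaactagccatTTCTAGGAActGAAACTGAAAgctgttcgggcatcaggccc
Irgm2: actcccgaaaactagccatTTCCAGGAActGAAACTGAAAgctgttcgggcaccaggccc
Tgtp1: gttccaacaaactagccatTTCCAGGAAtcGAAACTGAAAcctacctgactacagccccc
Gm12185: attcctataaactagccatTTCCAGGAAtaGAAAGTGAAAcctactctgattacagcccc
Irgm1: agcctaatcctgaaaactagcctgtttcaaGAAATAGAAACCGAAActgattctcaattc
Gbp2: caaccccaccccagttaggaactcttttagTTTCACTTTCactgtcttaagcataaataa
Gbp3: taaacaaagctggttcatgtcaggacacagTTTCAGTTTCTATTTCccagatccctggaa
Gbp7: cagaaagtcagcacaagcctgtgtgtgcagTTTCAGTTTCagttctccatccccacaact

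These windows lie at chr11:58199492-58199551 on the plus strand for Igtp, chr11:58214883-58214942 on the plus strand for Irgm2, chr11:48992294-48992353 on the minus strand for Tgtp1 and chr11:48927228-48927287 on the minus strand for Gm12185. Those of Irgm1, Gbp2, Gbp3 and Gbp7 lie at chr11:48871421-48871480 on the minus strand and, on the plus strand, at chr3:142620574-142620633, chr3:142559969-142560028 and chr3:142530253-142530312. The response element core was found in all 8 genes, against 936 of 27025 genes of the table with such a window (3.46%). The gamma-activated site was found in 5 of the 8 (62.5%), against 8.13% of all genes, and the same 5 held both motifs, against 0.459% of all genes. Of 10 other family genes with a window, 5 held the response element core and 3 the gamma-activated site. Gbp3 has a second annotated start, and its window held neither motif. In Igtp, Irgm2, Tgtp1 and Gm12185 the gamma-activated site stood directly before the response element, with only a pair of bases between them. The windows of Igtp and Irgm2 had the same base at 58 of 60 positions, and those of Tgtp1 and Gm12185 at 45. In Gbp2, Gbp3 and Gbp7 the response element was on the opposite strand, and in Irgm1 and Gbp3 there were 2 overlapping matches. The gamma-activated sites of Gbp7 lie from -106 to -98 and from -87 to -79, counted back from the start, and are not wholly inside its window. A match shows only that the letters are present, and binding was not measured.

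**Figure D1:**
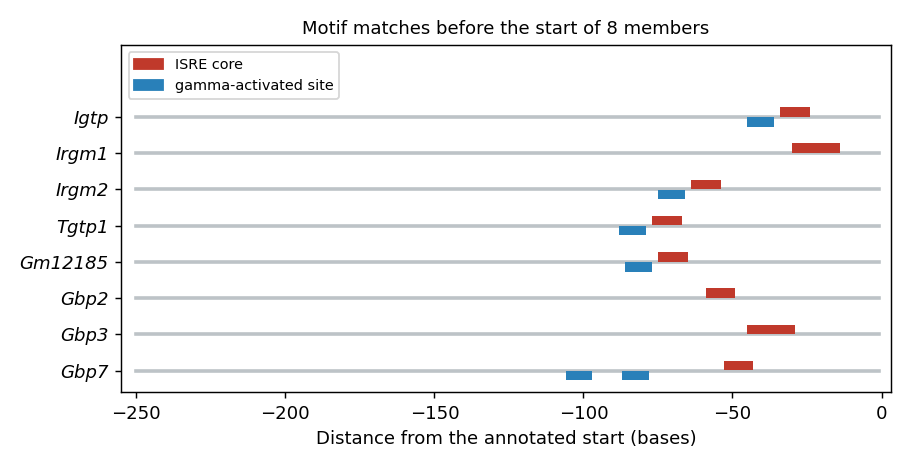
Motif matches in the 250 bases before the annotated start of 8 genes, plotted by distance from the start in bases. Red boxes above a line mark the response element core and blue boxes below it the gamma-activated site. All 8 lines carry a red box and 5 carry a blue one.

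The libraries held 24494253 to 27097438 counts and 25609 to 26869 genes with a count, and a gene with 3 counts would reach 0.109 to 0.126 CPM (read counts scaled to library size and composition), taken as the floor. Floors cover counting error only, since amplified reads are not independent molecules. The labels call the cells retinal ganglion cells, but rod markers summed to 27630 to 50840 CPM and ganglion cell markers to 184 to 381 CPM, so the libraries went against the label as a pure sort. MCS replicate 1 had more of the nuclear RNA Malat1, at 1278 CPM against 307 to 394 CPM in the others. Malat1 made up most of a list of 6 nuclear RNAs chosen after the data were seen, and the other 5 summed to 191 CPM there, against 94.6 to 178 CPM elsewhere. In bulk RNA, fewer cells of a type and less RNA per cell cannot be told apart.

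The 3 regulatory IRGs were higher in both CrAT libraries, and Igtp and Irgm1 had the highest mean CPM of the 10 genes there. Igtp (ENSMUSG00000078853), which regulates the effector IRGs at the endoplasmic reticulum and lipid droplets, had levels of 310.4 and 699 CPM in the first and the other CrAT library, against 116 and 144.5 CPM in the MCS libraries. Pairs of values below follow this order, replicate 1 first. The group means were 505 ± 275 and 130.5 ± 19.9 CPM (SD, n = 2), a ratio of 3.87, with 1.95 as the log2 fold change (SE 0.45). The lower CrAT library was 2.15 times the higher MCS library, so the groups did not overlap, and CrAT replicate 2 was well above CrAT replicate 1.

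Irgm1 (ENSMUSG00000046879), which acts at the Golgi and at lysosomes and is needed for resistance to several intracellular bacteria, stood at 386 and 554 CPM with CrAT against 174 and 140.0 CPM with MCS. The log2 fold change came to 1.58 (SE 0.33), with a ratio of means of 2.99. The nearest libraries of the groups differed by a ratio of 2.21. Irgm2 (ENSMUSG00000069874), which acts at the Golgi and restrains caspase-11 signalling, was at 149 and 265 CPM against 58.2 and 53.7 CPM, with a log2 difference of 1.89 (SE 0.37). The MCS libraries were nearly level for this gene, and the CrAT libraries differed by a ratio of 1.78. Igtp and Irgm2 overlap by 162 exon bases in the deposited coordinates, and 11.8% of the 50-base words of Igtp also occur in Irgm2. Summed, so that the division of reads between them has no part, the pair was at 459 and 964 CPM against 175 and 198 CPM.

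The effector IRGs had the larger ratios between the groups. Iigp1 (ENSMUSG00000054072), or Irga6, which coats parasite vacuoles, stood at 51.3 and 104 CPM with CrAT against 20.99 and 10.3 CPM with MCS. The log2 fold change was 2.31 (SE 0.52) and the ratio of means 4.97. Each group had a higher and a lower library, at a ratio of about 2.03 in CrAT and 2.04 in MCS, and the groups did not overlap.

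Tgtp1 (ENSMUSG00000078922), or Irgb6, another vacuole-coating GTPase, was at 86.5 and 197 CPM against 36.4 and 29.3 CPM, a log2 fold change of 2.11 (SE 0.45). As many as 81.2% of its 50-base words occur in another gene, 79.4% in its neighbour Tgtp2, so its own count is uncertain. The sum of Tgtp1 and Tgtp2 stood at 189 and 443 CPM with CrAT against 82.1 and 65.5 CPM with MCS, a ratio of means of 4.28. The groups did not overlap for the pair as a whole.

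Gm12185 (ENSMUSG00000048852), a predicted IRG gene beside Tgtp1, was the least abundant member and had the largest ratio. It stood at 16.2 and 29.5 CPM with CrAT against 4.10 and 2.06 CPM with MCS, from 387 and 782 against 102 and 57 counts. The lower CrAT library was 3.95 times the higher MCS library, and the log2 fold change came to 2.89 (SE 0.55). It shares 19.5% of its words with other genes, chiefly Gm5431, and 223 exon bases with Tgtp1. Gm5431 itself had at most 6 counts in a library. Tgtp1 had many more counts than Gm12185, 2065 and 5230 against 904 and 808, and 5.64% of its words occur in Gm12185. The level and ratio of Gm12185 are therefore uncertain as to the gene.

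The GBPs were also higher in both CrAT libraries, by smaller ratios. Gbp2 (ENSMUSG00000028270), which is recruited to parasite vacuoles and bacteria, stood at 241.5 and 317 CPM with CrAT against 138 and 90.4 CPM with MCS. Its log2 fold change was 1.29 (SE 0.34). The groups were separated by a ratio of 1.75 between their nearest libraries, the widest gap among the 4 GBPs.

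Gbp6 (ENSMUSG00000104713) was at 191 and 260.3 CPM against 137 and 60.7 CPM, a log2 fold change of 1.19 (SE 0.45). It shares 70.7% of its words with other genes, 65.0% with Gm43302 and 45.9% with Gbp10, and it overlaps Gm43302 by 1726 exon bases. Summed over the 3 genes the levels were 378 and 577 CPM against 254 and 112 CPM. The sum keeps the separation of the groups, which for Gbp6 alone is uncertain as to the gene.

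Gbp7 (ENSMUSG00000040253), which acts in host defence and oxidase assembly in mouse macrophages, was at 85.1 and 100.5 CPM against 67.8 and 25.5 CPM, a log2 fold change of 0.99 (SE 0.48). Gbp3 (ENSMUSG00000028268) was at 68.2 and 67.1 CPM against 59.2 and 21.3 CPM, a log2 fold change of 0.75 (SE 0.50). For both genes MCS replicate 1 lay close under the CrAT libraries, and for Gbp3 the nearest libraries differed by a ratio of only 1.13. Without MCS replicate 1 the log2 fold change of Gbp3 was 1.67, and without MCS replicate 2 it was 0.20.

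**Figure D2:**
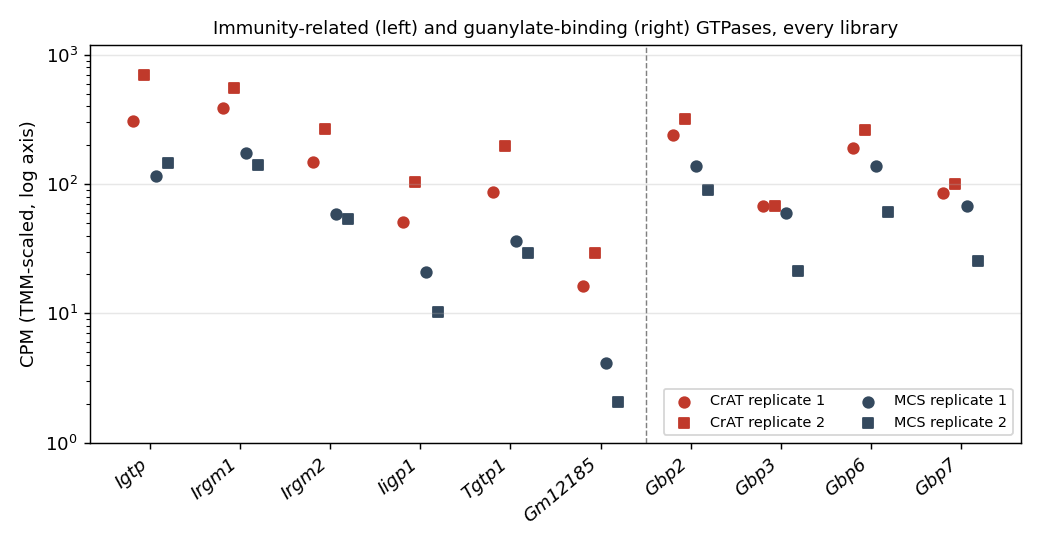
CPM of the 10 genes in each library, on a log axis, with CrAT and MCS libraries in separate colours. The CrAT libraries lie above the MCS libraries for every gene, with the narrowest gap at Gbp3.

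All 10 genes passed the filter on low counts, and in all 10 the CrAT libraries exceeded both MCS libraries. Among the 19638 genes tested this order was found in 15.0%, and since the genes were selected on this contrast nothing is read from the count. The median log2 fold change was 1.73 over the 10 genes, 2.03 over the IRGs and 1.09 over the GBPs, beside 0.01 over all genes tested. Together the 10 genes took 0.154% and 0.258% of all counts with CrAT against 0.0825% and 0.0589% with MCS.

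Per kilobase of exon, on the authors' FPKM scale, Igtp had the highest level in every library, from 58.5 to 344 FPKM, and Gm12185 the lowest, from 0.380 to 5.24 FPKM. Gbp2 followed Igtp, with mean levels of 109 FPKM in CrAT and 46.1 FPKM in MCS. In MCS replicate 1 Gbp2 was at 55.6 and Igtp at 58.5 FPKM, so these neighbours in the order were nearly level there. The table places Igtp, Irgm1, Irgm2, Tgtp1 and Gm12185 on chromosome 11, Gbp2, Gbp3 and Gbp7 on chromosome 3, Gbp6 on chromosome 5 and Iigp1 on chromosome 18. Irgm1 had mean levels of 79.5 and 27.5 FPKM, and Irgm2 of 55.2 and 15.4 FPKM. Tgtp1 averaged 43.6 and 10.4 FPKM and Gbp6 37.3 and 16.9 FPKM, and their ranges overlapped in CrAT. Gbp3, at 20.3 and 12.5 FPKM, Gbp7, at 16.2 and 8.45 FPKM, and Iigp1, at 13.1 and 2.73 FPKM, had lower means in CrAT. In MCS the mean of Gbp3 was above that of Tgtp1. The CrAT ranges of Gbp7 and Iigp1 overlapped as well.

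The same replicates were high in both families, but by different ratios. CrAT replicate 2 was above replicate 1 in 6 of 6 IRGs and 3 of 4 GBPs, and MCS replicate 1 above replicate 2 in 5 of 6 and 4 of 4. Within CrAT, replicate 2 was at least 1.5 times replicate 1 for 5 of the 6 IRGs and 0 of the 4 GBPs, beside 18.7% of all genes tested. The exception among the IRGs was Irgm1, at a ratio of 1.44. Within MCS, replicate 1 was at least 1.5 times replicate 2 for 2 of the 6 IRGs, Iigp1 and Gm12185, and for all 4 GBPs, beside 25.5% of all genes. The median ratio of CrAT replicate 2 to replicate 1 was 1.92 for the IRGs and 1.25 for the GBPs, and that of MCS replicate 1 to replicate 2 was 1.24 and 2.46. This pattern was noticed in the values and rests on single libraries, so it has no test.

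Among the other genes of both families, the CrAT ratios again differed, and the MCS ratios of some IRG genes rest on few counts. Of 7 other IRG genes tested, leaving out Irgq, CrAT replicate 2 was at least 1.5 times replicate 1 for 7, and of 7 other GBP genes for 1, Gbp10, at a ratio of 1.90. MCS replicate 1 was at least 1.5 times replicate 2 for 4 of those IRG genes and for all 7 GBP genes. The median ratio of CrAT replicate 2 to replicate 1 came to 2.34 in these IRG genes and 1.15 in these GBP genes, and that of MCS replicate 1 to replicate 2 to 2.28 and 2.77. In MCS replicate 2, 9930111J21Rik1, 9930111J21Rik2 and F830016B08Rik had only 1, 1 and 8 counts. Their MCS ratios were 43.3, 35.5 and 9.9, beside 2.28 for Gm4951, 1.26 for Tgtp2, 1.18 for Ifi47 and 0.710 for Gm12250. Tgtp2 and Gbp10 share words with Tgtp1 and Gbp6, so their reads may not be separate from those of the members. Irgq was left out as a distant relative not known to respond to interferon, after its values were seen. MCS replicate 1, the high library for the GBPs, is the one with high Malat1, and the part of this in the GBP levels was not tested. Without that library the lowest log2 fold change among the 10 genes was 1.63.

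**Figure D3:**
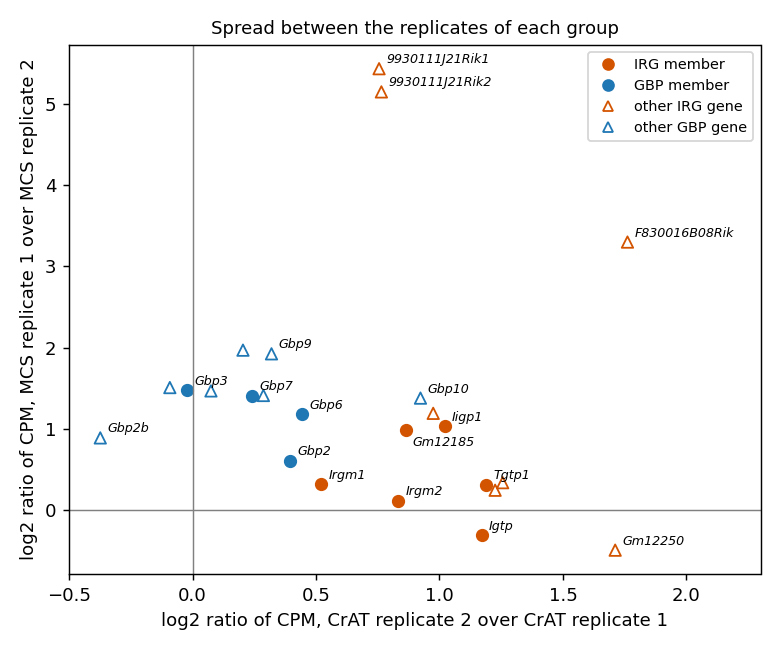
Log2 ratio of CPM between the MCS replicates against that between the CrAT replicates, 1 point per gene, with IRGs in orange and GBPs in blue. Filled points are the 10 genes and open points other genes of the families. The GBPs lie to the upper left and most IRGs to the right, and the 2 open points above 5 are genes with 1 count in MCS replicate 2.

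Of 35 other family names, 21 were in the table and 15 had enough counts to be tested. None passed edgeR's quasi-likelihood test after Benjamini-Hochberg adjustment, as for all genes (0% called), and 6 had an unadjusted p under 0.05, all higher in CrAT, beside 4.15% of all genes in either direction. DESeq2 called 2 of the 15, Tgtp2 (adjusted p = 0.00717) and Gm12250 (adjusted p = 0.0440), beside 0.275% of all genes tested. As 79.4% of the words of Tgtp1 occur in Tgtp2, the call of Tgtp2 may not be separate from a member selected on this contrast. The median log2 fold change of the 15 was 1.48, and in 10 the CrAT libraries exceeded both MCS libraries, beside 15.0% of all genes. These counts include Tgtp2 and Gbp10, which share words with members.

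Tgtp2, the near copy of Tgtp1, stood at 103 and 245.5 CPM with CrAT against 45.7 and 36.2 CPM with MCS, a log2 fold change of 2.09 (SE 0.47). RefSeq also lists Gm12250 as Irgb10, an IRG that in mouse macrophages helps release bacterial ligands, while the authors' annotation calls it a processed pseudogene. Gm12250 was at 10.1 and 32.9 CPM against 3.42 and 4.82 CPM, a log2 fold change of 2.38 (SE 0.64). Both lay on the same side as the effector IRGs above, but the reads of Tgtp2 may not be separate from those of Tgtp1. Ifi47, or Irgd, was at 20.9 and 48.8 CPM against 13.6 and 11.4 CPM, and Gbp10 at 73.0 and 138 CPM against 39.5 and 15.2 CPM.

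Gm4951 had a log2 fold change of 1.45 (SE 0.58), 9930111J21Rik1 of 1.17 (SE 1.28), 9930111J21Rik2 of 2.41 (SE 1.22) and F830016B08Rik of 1.58 (SE 1.08), the last 3 from few counts. Among the GBPs, Gbp8 had a log2 fold change of 1.55 (SE 0.56), Gbp11 of 1.20 (SE 0.71), Gbp5, which promotes inflammasome assembly, of 0.93 (SE 0.57), Gbp4 of 0.56 (SE 0.51) and Gbp9 of 0.15 (SE 0.61). Gbp2b, also called Gbp1, had only 14 and 12 counts against 5 and 3. Irgq stood alone with both CrAT libraries below both MCS libraries, an order found in 16.6% of all genes, at 7.16 and 22.3 CPM against 32.9 and 26.2 CPM. Gm12187 had a rounded count of 0 in all 4 libraries, and Gm5431, Irgc1, Gvin1, Gvin2 and Gvin3 had too few counts to be tested.

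**Figure D4:**
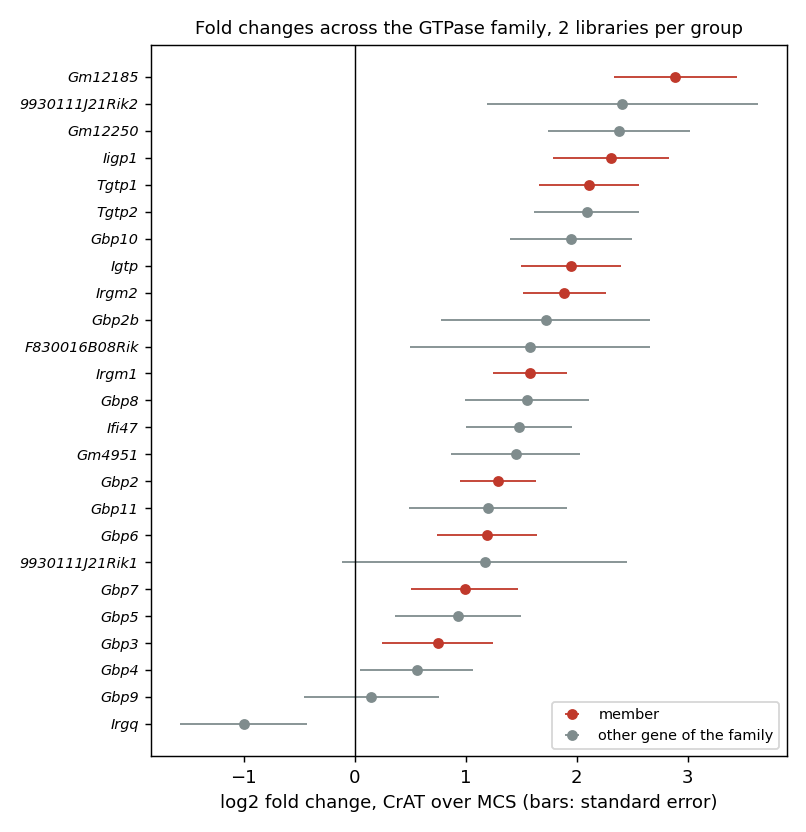
Log2 fold change, CrAT over MCS, of the 10 genes and of the other family genes tested, with bars of 1 standard error. The 10 genes lie between 0.75 and 2.89, and of the 15 others only Irgq lies below 0.

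The genes that carry the interferon gamma signal were described from a list of 18, of which 17 were tested. Ifng itself had 0 counts in all 4 libraries. Neither receptor chain was separated between the groups. Ifngr1 was at 70.0 and 41.5 CPM against 93.2 and 56.8 CPM, and Ifngr2 at 58.2 and 67.2 CPM against 45.6 and 64.9 CPM. The kinase Jak1 had a log2 fold change of 0.42 (SE 0.28) and Jak2 of 0.09 (SE 0.45).

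Irf1, a transcription factor that interferon gamma induces and that acts on IRG and GBP genes, stood at 74.4 and 142.5 CPM with CrAT against 57.4 and 50.2 CPM with MCS. Irf8, a relative of Irf1 best known in myeloid cells, was at 44.7 and 97.7 CPM against 18.5 and 16.2 CPM. In both genes the groups did not overlap. Irf9, a DNA-binding factor of the interferon response, had a log2 fold change of 1.35 (SE 0.28), and Nlrc5, which drives MHC class I genes, of 2.36 (SE 0.52). Socs1, the feedback inhibitor of the pathway, was at 2.39 and 4.68 CPM against 3.34 and 3.01 CPM, and the groups overlapped.

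None of the 17 passed edgeR's test, and 6 had an unadjusted p under 0.05, all higher in CrAT, beside 4.15% of all genes in either direction. Of the genes named above, DESeq2 called Nlrc5 (adjusted p = 0.00423), Irf8 (adjusted p = 0.00794) and Irf9 (adjusted p = 0.0208). Over all genes tested it called 0.275%. The list's median log2 fold change was 0.42.

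In the type I and type III interferon list, 8 of 14 genes were tested, and Ifnb1, Ifna1, Ifna2, Ifna4, Ifnl2 and Ifnl3 were at 0 in all libraries. None passed edgeR's test, and 2 had an unadjusted p under 0.05, both higher in CrAT, beside 4.15% of all genes in either direction. DESeq2 called Irf7 alone (adjusted p = 0.00423), beside 0.275% of all genes tested. Irf7, which amplifies interferon alpha expression, was at 151.5 and 199.8 CPM against 57.8 and 59.6 CPM, and Stat2 at 116 and 141 CPM against 78.1 and 53.9 CPM. The list's median was 0.03, and leaving out 1 library at a time moved it between -0.03, without MCS replicate 2, and 0.29, without MCS replicate 1. With library totals alone it was -0.02.

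**Figure D5:**
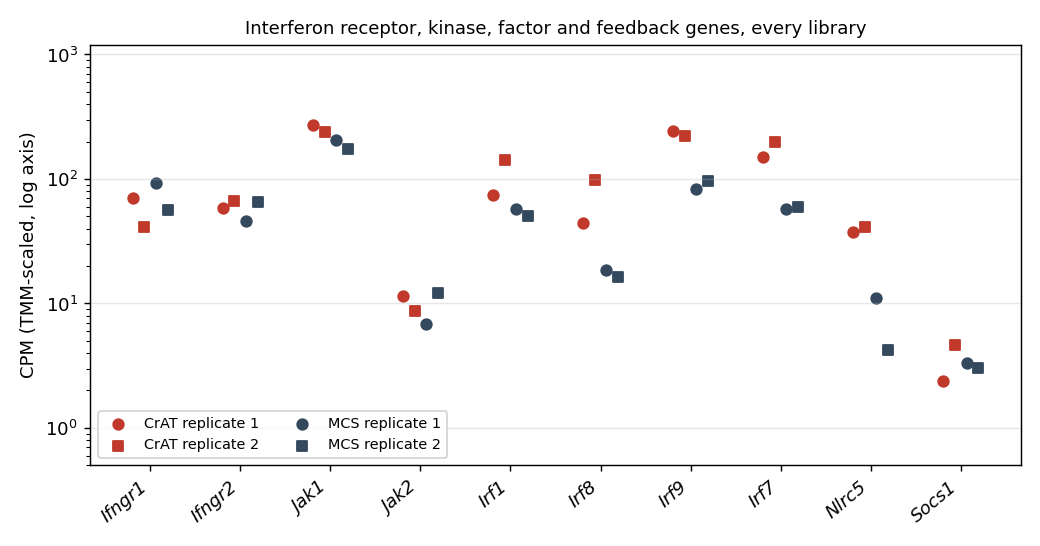
CPM of interferon pathway genes in each library, on a log axis. Irf8, Irf9 and Irf7 show no overlap, with CrAT the higher group, and Ifngr1, Ifngr2 and Socs1 overlap between the groups.

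Conjugation of the Atg8 family helps direct IRGs and GBPs to vacuoles, and none of the 14 genes of that machinery passed either test or had an unadjusted p under 0.05. The list's median log2 fold change was 0.12. The smallest p belonged to Gabarapl2, an Atg8 protein, at 303 and 306 CPM against 202 and 192 CPM. Of the caspase-11 and inflammasome list, 11 of 15 genes were tested, and Casp4 and Nlrp3 were at 0 in all libraries. None passed either test. Zbp1, Irf1 and Mlkl, 3 of the 11, had an unadjusted p under 0.05, all higher in CrAT, beside 4.15% of all genes in either direction. Irf1 also belongs to the interferon gamma list above. The median log2 fold change of the 11 was 0.87, with 10 above 0 and 1 below. Zbp1, a sensor of nucleic acids, was at 12.3 and 24.03 CPM against 6.96 and 3.84 CPM.

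Markers of cells that could bring these transcripts were examined beside the members. Microglia and macrophage markers summed to 42.4 and 35.9 CPM with CrAT against 42.6 and 41.7 CPM with MCS, with a median log2 fold change of -0.04 over 12 genes tested. Lymphocyte and natural killer cell markers summed to 3.69 and 1.58 CPM with CrAT against 2.65 and 1.45 CPM with MCS. Of the 20, 12 had a rounded count of 0 in all libraries, among them Cd3e, Cd3d, Cd3g, Nkg7, Gzmb and Prf1. The 2 tested were Cd8a, with 41 and 31 against 35 and 9 counts, and Trac, with 16 and 10 against 17 and 19. Cd4 had 25 and 0 against 7 and 7 counts. The list of class II and dendritic cell genes summed to 525 and 383 CPM against 141 and 62.1 CPM, and 5 of 7 tested had both CrAT libraries higher, beside 15.0% of all genes. DESeq2 called Cd74, H2-Aa and H2-Eb1, which are class II genes, beside 0.275% of all genes tested, and edgeR called none. Other genes of that list are known in dendritic cells. Flt3 had a log2 fold change of -1.40 (SE 1.17) and Zbtb46 of 0.21 (SE 0.51), both with overlap. Batf3 had at most 10 counts, and Ccr7 was at 0. Xcr1 had both CrAT libraries higher, from 14 and 13 against 3 and 11 counts, with a log2 fold change of 1.03 (SE 0.95). Itgax was also higher in both but had only 2 and 4 against 1 and 1 counts, and Cd209a had at most 1. Mueller glia markers summed to 16880 and 13770 CPM against 24900 and 22070 CPM, with 9 of 14 below both MCS libraries, beside 16.6% of all genes. Endothelial and pericyte markers summed to 512 and 403 CPM against 927 and 519 CPM, most of it from Kdr and Flt1. Of the 9 tested, 2 had both CrAT libraries higher, Pecam1 and Ly6c1, both from few counts, beside 15.0% of all genes. Flt1 and Pdgfrb had both lower, beside 16.6%. DESeq2 called Flt1 lower (adjusted p = 0.00324), beside 0.275% of all genes tested. Cdh5 was at 0 in all libraries. Rod markers were lower in replicate 2 of both groups, at 50840 and 27630 CPM with CrAT against 50070 and 30180 CPM with MCS. Amacrine markers were higher there, at 896 and 2370 CPM against 723 and 1497 CPM. The part of the class II, Mueller glia, endothelial, rod and amacrine lists in the members' levels was not tested.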

How the data were processed

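RNA of 4 libraries of sorted retinal cells was analysed, 2 from AAV2-CrAT and 2 from AAV2-MCS eyes, grouped by the sample titles. Per the labels' protocols, libraries came from SMART-seq v4, which does not mark strand. The submitters' processing notes name STAR 2.7.2b with GRCm38.p6 and mm10. The deposited counts carry featureCount in their name, while the settings of the counter and the annotation release were not given in the sources used. The authors' table holds deposited whole numbers per gene that are rounded estimated counts: rebuilt from FPKM and exon length, 43.6% to 44.9% of the positive values were not whole within 0.02. The design had assumed plain counts, and the same test was used. The authors deposited FPKM per kilobase of exon. Coordinates of the tables carry no build name, and only 1402 of the 51898 identifiers also in GENCODE M21 (GRCm38) matched it in start and end, so base positions printed here are RefSeq's. The tables' 4 columns of other samples were not used.

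Genes were filtered with edgeR's filterByExpr (19638 kept), scaled by TMM and tested with edgeR 4.0.16's quasi-likelihood test in R 4.3.3, two-sided, adjusted by Benjamini-Hochberg over all genes at 0.05. There were 2 residual degrees of freedom, and the common biological coefficient of variation was 0.404. Log2 fold changes are computed here from the deposited counts. DESeq2 1.42.0, library totals, no filter, a replicate block, log2 FPKM and leaving out each library were alternatives. The procedure was tested on simulated data. The pass was set only on fold changes larger than those of the members, so it does not show what the test finds at their size. The genes named were the 10 members, every other family gene in the table, and of each pathway list the ligands, receptors, Irf1, Socs1 and up to 4 with the smallest p. Some values that this rule takes are not reported here. Shared sequence was counted in GENCODE M21 transcripts. The members and lists were chosen with earlier results of these data known. Protein sequences were not used here.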

Additional observations from a re-analysis of the deposited data

How the results depend on the processing

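With 2 libraries a group, 0 genes passed edgeR's test, with 815 at an unadjusted p under 0.05, and DESeq2 called 54, with 898 at an unadjusted p under 0.05. Setting DESeq2's independent filtering for 0.05 in place of its default of 0.1 gave 55, a setting chosen after seeing the data. Without the filter on low counts edgeR called 2, Apol6 and H2-Aa, named after their values were seen. Of the other family and pathway genes, 0 passed edgeR's test and 7, Tgtp2 included, were called by DESeq2 under either setting. The cause of these differences was not tested. The members' median log2 fold change of 1.73 was 1.57 to 1.74 under the other tools, scalings, filter and FPKM scales, and 1.29 to 2.03 when each library was left out. All 10 members had a log2 fold change above 0 under all 9 settings fitted to counts. Of their 90 values, 6 moved by more than the replicate spread: Igtp, Irgm2 and Tgtp1 to 1.27, 1.43 and 1.42 without CrAT replicate 2, and Gbp3, Gbp6 and Gbp7 to 1.67, 1.90 and 1.86 without MCS replicate 1. Same-numbered libraries deviated together (r = 0.47 across genes). There were only 2 pairs, and the labels do not say whether their libraries share more than a number. With the replicate block the median was 1.70 and 0 genes passed.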
